A study of Homo sapiens with 2 samples.

Results

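The 7 genes of the p53 pathway and of the integrated stress response described here were taken by symbol from the authors' deposited table of genes that differed between TFCP2L1 knockdown and scramble cells: CDKN1A, SESN1, GDF15, PMAIP1, SPATA18, CHAC1 and DDIT3. They are 7 of 2005 genes in that table, 7 of 1861 with a symbol, and each symbol had 1 row. They were chosen by name with their levels in these libraries already known, so their ratios are a description and carry no test. They lie on chromosomes 6 (CDKN1A and SESN1), 19 (GDF15), 18 (PMAIP1), 4 (SPATA18), 15 (CHAC1) and 12 (DDIT3). HES2, an established human embryonic stem cell line, was used for both groups. The knockdown cells carried a lentivirus with a short hairpin RNA against TFCP2L1, a CP2-family transcription factor known for its role in the self-renewal of mouse embryonic stem cells. The scramble cells carried a lentivirus with a control sequence. Knockdown and scramble cells alike grew through 3 passages in a 10% KSR medium to which FGF2 (10 ng/ml) and Activin A (10 ng/ml) were added, and total RNA was sequenced. Each group is a single library (n = 1), so the differences have no replicate check, and the hairpin cannot be told apart from any other difference between the cultures. The number of hairpins and of infected clones is not given in the sources used here.

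The tumour suppressor p53 is a transcription factor that is stabilised by DNA damage and other stresses and switches on genes that stop the cell cycle, start apoptosis or adjust metabolism. In the integrated stress response, kinases that sense amino acid shortage, unfolded protein in the endoplasmic reticulum, viral RNA or lack of heme phosphorylate the translation factor eIF2 alpha. General translation then drops while the transcription factor ATF4 is made, and ATF4 with its target CHOP (the product of DDIT3) switches on genes of amino acid supply, redox balance and cell death. Human embryonic stem cells are known for keeping apoptosis close to its threshold. GDF15 and SESN2 are known targets of both pathways.

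Matches to known control sequences were searched close to the transcript starts, and the stretches that carry a match are printed first. They come from RefSeq windows (GRCh38.p14) of 250 bases before to 50 bases after a transcript start, and windows were found for 7 of 7 genes, 10 in all, since SESN1 has 3 and DDIT3 has 2 that overlap. Capitals mark a match to the p53 response element in PMAIP1, SESN1 and GDF15, and to the C/EBP-ATF composite element in CHAC1. Sequences run 5′ to 3′ on the strand of the gene. PMAIP1 is the 250 bases before the start (chr18:59899746-59899995, plus strand), SESN1 the 250 bases before its start 3 (chr6:109008989-109009238, minus strand), GDF15 a stretch of 30 bases just after the start (chr19:18386178-18386207, plus strand), and CHAC1 the 250 bases before the start (chr15:40953221-40953470, plus strand).
PMAIP1: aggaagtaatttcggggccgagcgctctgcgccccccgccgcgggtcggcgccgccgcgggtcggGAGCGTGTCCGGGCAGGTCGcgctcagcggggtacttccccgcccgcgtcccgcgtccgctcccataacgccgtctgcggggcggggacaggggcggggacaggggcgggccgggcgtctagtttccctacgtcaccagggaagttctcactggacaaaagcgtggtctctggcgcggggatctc
SESN1: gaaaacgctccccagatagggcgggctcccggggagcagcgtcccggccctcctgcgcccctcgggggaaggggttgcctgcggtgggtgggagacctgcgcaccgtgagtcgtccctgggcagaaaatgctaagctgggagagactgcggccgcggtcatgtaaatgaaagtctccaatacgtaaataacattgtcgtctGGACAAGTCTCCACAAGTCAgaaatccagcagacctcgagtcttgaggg
GDF15: acctgcacAGCCATGCCCGGGCAAGAACtc
CHAC1: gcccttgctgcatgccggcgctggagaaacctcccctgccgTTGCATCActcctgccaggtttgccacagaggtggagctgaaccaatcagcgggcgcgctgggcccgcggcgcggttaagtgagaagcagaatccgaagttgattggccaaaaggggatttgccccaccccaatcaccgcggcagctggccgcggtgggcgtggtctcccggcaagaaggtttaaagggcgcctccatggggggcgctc

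The p53 element was taken as a pair of 10-base copies of its consensus, up to 13 bases apart, with the core C and G of each copy in place and at most 3 mismatches over the 20 bases. The matches in PMAIP1 (185 bases before the start), SESN1 (49 bases before its start 3) and GDF15 (28 bases after the start) each had 3 mismatches and no spacer. A match of this kind was in 3 of 10 member windows, against 12.8% of 35116 windows of all genes, and one without a spacer in 1.12% of all windows. With at most 2 mismatches no member window had a match, against 2.93% of all windows. The limit on mismatches and the look at spacers were chosen after the matches were seen. The composite element, searched as TGATGNAA on both strands, was in 1 of 10 member windows, as TTGCATCA 209 bases before the CHAC1 start, and in 3.62% of all windows. The ER stress element (CCAAT, then 9 bases of any kind, then CCACG, so that it contains a CCAAT box) was in none of them and in 0.0769% of all windows. The CCAAT box was in 6 of 10 windows, from 4 of 7 genes (CHAC1, DDIT3, GDF15 and SESN1), against 34.6% of all windows. The 2 overlapping DDIT3 windows hold the same boxes and are both counted. The TATA box TATAAA was in 1 of 10 (GDF15, 29 bases before the start) against 11.5%. The CP2 element, the kind of site bound by the family of TFCP2L1, had a match in 10 of 10 windows, but 60.3% of all windows have one too. These matches are letters in a window and do not show that a factor binds. Sequence beyond the windows was not searched, so a gene without a match here may still have a site elsewhere.

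**Figure D1:**
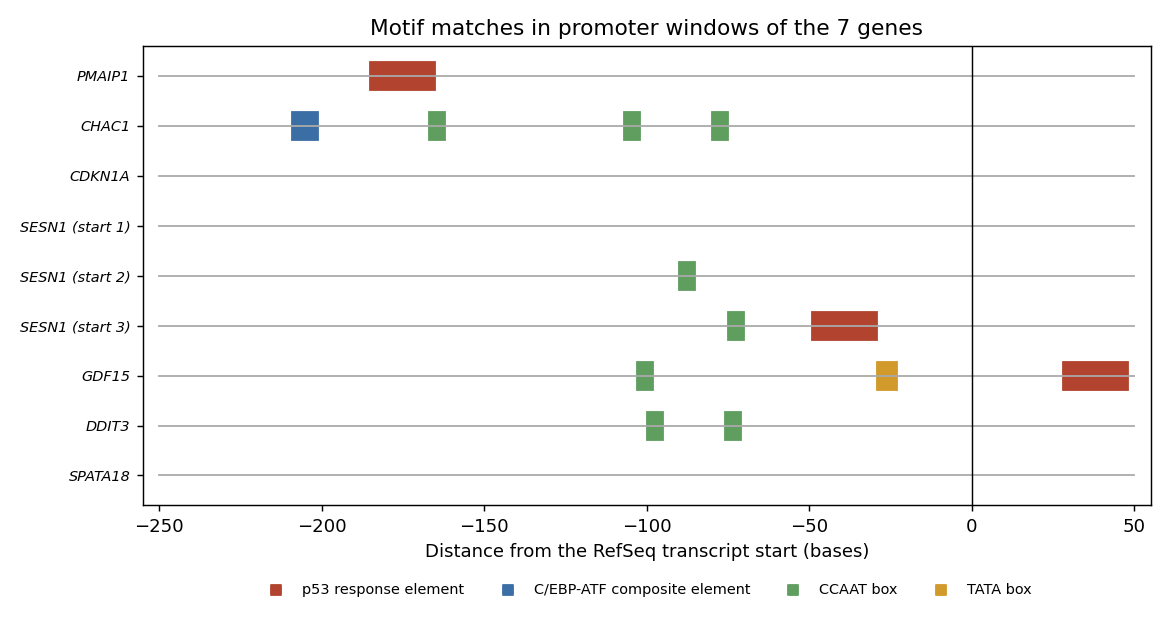
Positions of motif matches on promoter windows of the 7 genes, as distance in bases from the RefSeq transcript start (vertical line at 0). Coloured boxes are matches on either strand; the p53 element is seen in PMAIP1, GDF15 and SESN1 start 3, the composite element in CHAC1, and the second DDIT3 window, which overlaps the first, is left out.

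Of the 7 genes, 6 were lower in the knockdown library (PMAIP1, CHAC1, CDKN1A, SESN1, GDF15 and DDIT3) and 1 was higher (SPATA18), by the limits of the authors' deposited table. The authors' limits pass 4.98% of the genes they tested as lower and 5.86% as higher, and 45.9% of all listed genes are lower and 54.1% higher. Since those limits also chose the genes, nothing is read from the count. Levels are in FPKM, fragments scaled to gene length and library depth, and ratios are knockdown over scramble. Reads per gene were inferred from the FPKM, the gene length and the deposited p-value, and each ratio of reads has an exact 95% interval (Clopper-Pearson). Such an interval reflects counting error alone, and without molecular identifiers a read need not be a separate molecule. A log2 ratio with a pseudocount of 0.1 FPKM understates the ratios of low genes. By that ratio, 6 of 7 were at least 2-fold lower and 0 at least 2-fold higher. Beside these stand 44.7% and 51.6% of the 1587 listed genes that reached 1 FPKM in a library. All of those had already passed the authors' limits. For all 6 lower genes the whole counting interval lay below a ratio of 0.5. The authors' limits already put every listed lower gene at a ratio of 0.5 or less. The share of other listed genes with such an interval was not counted, so nothing is read from this. The FPKM of the 6 lower genes summed to 78.1 in the knockdown library and 340.9 in the scramble library. PMAIP1 alone held 64.8% of that sum in the knockdown library and 70.1% in the scramble library. In bulk RNA, fewer cells that express a gene and less RNA per cell cannot be told apart.

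The targeted gene was lower in the library labelled as its knockdown. TFCP2L1 was at 0.33 FPKM in knockdown cells (69 reads) and 3.19 FPKM in scramble cells (692 reads), 9.70-fold lower (interval 7.56 to 12.6). The libraries held about 22720000 (knockdown) and 23480000 (scramble) reads, as inferred from the values, of which the listed genes took 5.64% in the knockdown library and 3.95% in the scramble library. Scaling to the reads of the other genes would raise each log2 ratio by 0.03. Of the markers of other cell states, 8 of 8 primitive streak and endoderm genes were higher, summing to 1322 FPKM in the knockdown library and 10.8 FPKM in the scramble library, with SOX17 at 0 reads in scramble cells. Of 7 pluripotency markers 1 had a row (SOX2, 86.1 FPKM in knockdown cells and 180 FPKM in scramble cells), of 5 neural markers 1 (NES, 252 and 95.9 FPKM in that order), and of 6 fibroblast markers 1 (COL1A1, 24.4 and 110.2 FPKM in that order). The part of these cell states in the ratios below was not tested.

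**Figure D2:**
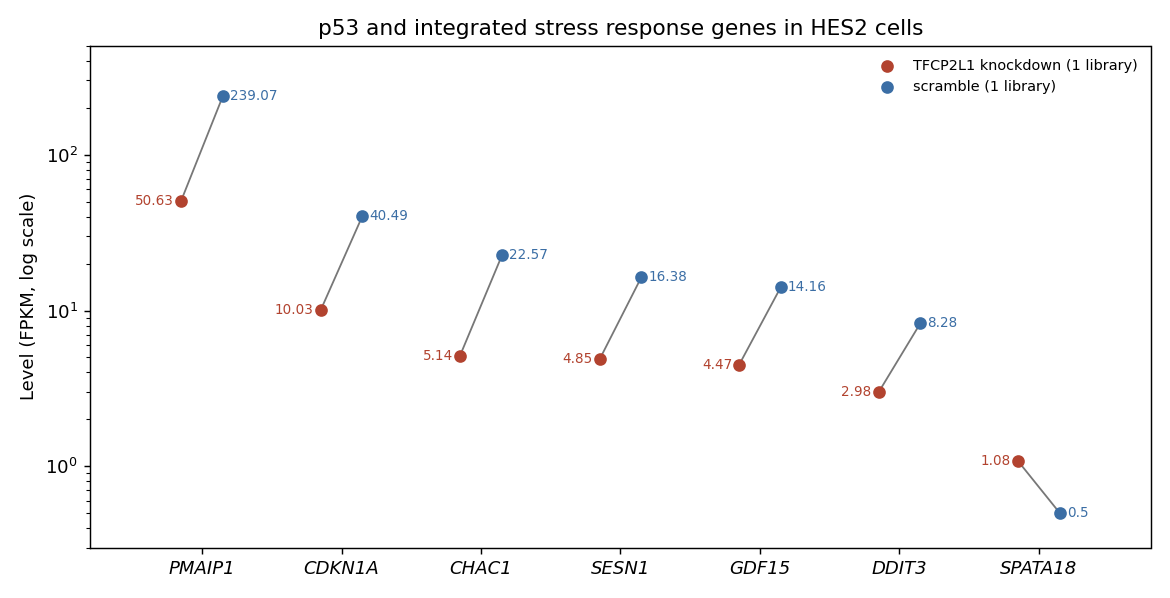
Level of each gene in FPKM on a log axis, with the TFCP2L1 knockdown library on the left of each pair and the scramble library on the right (1 library each). Lines join the libraries; 6 genes are lower in the knockdown library, from PMAIP1 at 50.6 against 239 FPKM to DDIT3 at 2.98 against 8.28 FPKM, and SPATA18 is higher.

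The gene of cell cycle arrest is CDKN1A, which encodes p21, an inhibitor of cyclin-dependent kinases and the classic p53 target. CDKN1A (gene ID 1026) was at 10.0 FPKM in knockdown cells and 40.5 FPKM in scramble cells, from 481 and 2005 reads in that order. It was 4.03-fold lower (interval 3.65 to 4.46), with a log2 ratio of -2.00. Among the 1587 listed genes that reached 1 FPKM, 106 had a lower log2 ratio. An antisense RNA, DINOL, overlaps 4.79% of its exon bases in GENCODE 29, and the strand setting of the authors' counting is not given in the sources used here. Among the other 7 genes of the arrest list, PLK3, a stress-responsive kinase, was the one with a row, at 2.04 FPKM in knockdown cells and 4.38 FPKM in scramble cells (ratio 0.466, interval 0.370 to 0.584).

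Apoptosis is the role of PMAIP1, which encodes NOXA, a BH3-only protein that neutralises the survival factor MCL1. PMAIP1 (gene ID 5366) was the most abundant of the 7 genes, at 50.6 FPKM in knockdown cells and 239 FPKM in scramble cells. Its 2167 knockdown and 10571 scramble reads were taken from the FPKM, because its deposited p-value is printed as 0. The level was 4.72-fold lower (interval 4.50 to 4.94), with a log2 ratio of -2.24. PMAIP1 ranked 7 among the 2005 listed genes by its level in scramble cells and 68 by its level in knockdown cells. Its difference of -188 FPKM ranked 4 among the falls in level. Of 16 genes of the BCL2 family, to which NOXA belongs, 3 had a row and all 3 were lower, which is 18.8% of the list beside 4.98% of all genes tested, and includes PMAIP1, whose lower level was known when it was chosen. BBC3, which encodes the p53-induced BH3-only protein PUMA, was at 9.57 FPKM in knockdown cells and 23.1 FPKM in scramble cells (2.40-fold lower, interval 2.13 to 2.72). BIK, a further BH3-only gene, was at 0.83 FPKM in knockdown cells and 2.19 FPKM in scramble cells on 17 and 46 reads (2.62-fold lower, interval 1.47 to 4.87). PERP, a membrane protein gene counted with the p53 targets of apoptosis and also known as a desmosome component, went the other way, at 38.5 FPKM in knockdown cells and 18.7 FPKM in scramble cells (ratio 2.07, interval 1.95 to 2.19). Other genes hold 5.21% of the 31-base words of PERP.

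Metabolic restraint is the role of SESN1, a sestrin that dampens mTORC1 when leucine is short and that p53 induces. SESN1 (gene ID 27244) was at 4.85 FPKM in knockdown cells (302 reads) and 16.4 FPKM in scramble cells (1036 reads). It was 3.32-fold lower (interval 2.92 to 3.78), with a log2 ratio of -1.74. An antisense RNA overlaps 7.09% of its exon bases. SESN1 was the one sestrin of 3 with a row. Of the other p53 targets of metabolism and redox, GLS2, a mitochondrial glutaminase, was at 4.25 FPKM in knockdown cells and 10.5 FPKM in scramble cells (2.47-fold lower, interval 2.13 to 2.88). GLS2 is uncertain, because 82.8% of its exon bases overlap other genes. RRM2B, a ribonucleotide reductase subunit that supplies nucleotides for repair, was at 7.94 FPKM in knockdown cells and 17.97 FPKM in scramble cells (2.26-fold lower, interval 2.09 to 2.45). DDB2, a damage sensor of nucleotide excision repair, was at 14.7 FPKM in knockdown cells and 34.4 FPKM in scramble cells (2.36-fold lower, interval 2.14 to 2.60).

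SPATA18, also called Mieap, encodes a protein of mitochondrial quality control and is a p53 target. SPATA18 (gene ID 132671) was at 1.08 FPKM in knockdown cells and 0.50 FPKM in scramble cells, from 105 and 50 reads in that order. The ratio of reads was 2.17 (interval 1.54 to 3.11), and the log2 ratio was 0.98 with the pseudocount and 1.11 in the authors' deposited table. SPATA18 therefore lay above the knockdown-to-scramble ratio of 2 in that table and just under it with the pseudocount. Its level was the lowest of the 7 genes in both libraries, and it lay opposite in direction to the other 4 p53 targets among them. The 10 transcripts that GENCODE 29 gives for it share no exon base with another gene.

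**Figure D3:**
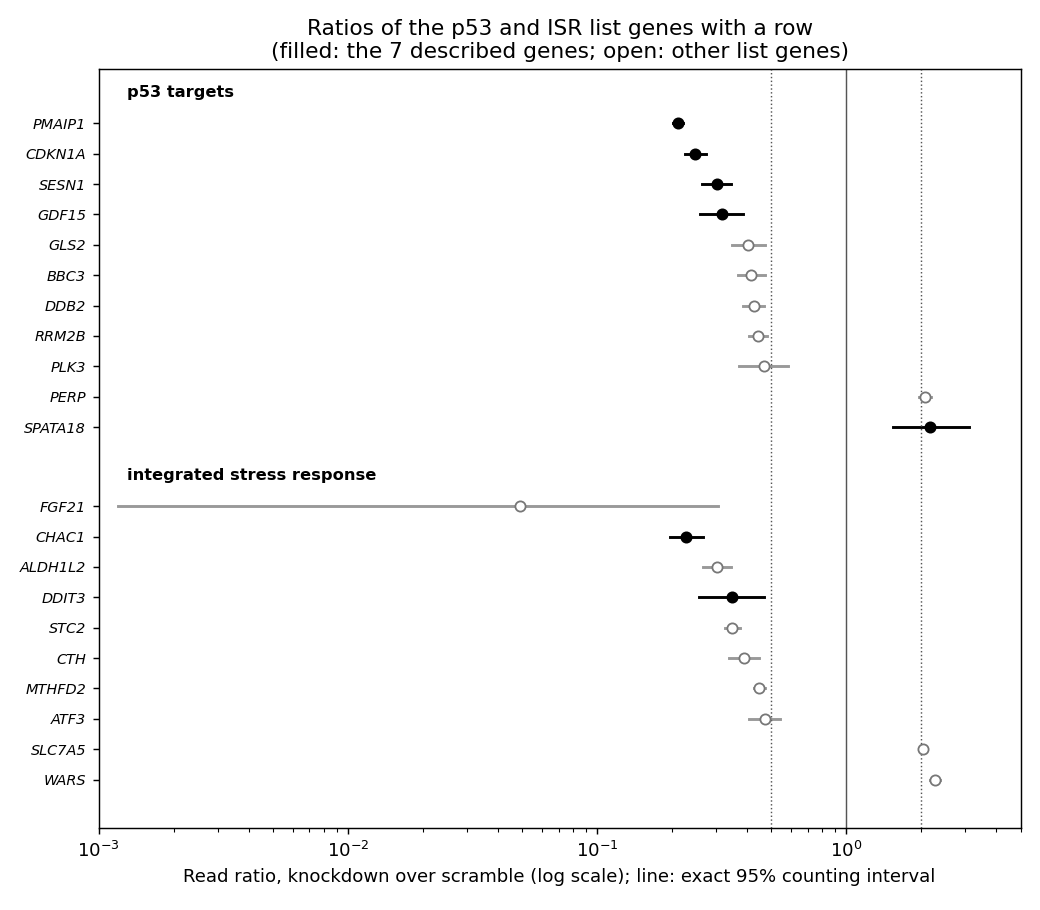
Ratio of inferred reads, knockdown over scramble, on a log axis for each p53 target and each integrated stress response gene with a row; lines are exact 95% counting intervals and dotted lines mark ratios of 0.5 and 2. Filled points are the 7 described genes and open points the other list genes; GDF15, on both lists, is drawn with the p53 targets, and PERP, SPATA18, SLC7A5 and WARS lie above 1.

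GDF15, a secreted cytokine of the TGF-beta superfamily that signals cell stress, is a target of p53 and of ATF4 and CHOP. GDF15 (gene ID 9518) was at 4.47 FPKM in knockdown cells (137 reads) and 14.2 FPKM in scramble cells (448 reads). It was 3.16-fold lower (interval 2.61 to 3.86), with a log2 ratio of -1.64. STC2 and FGF21, other secreted proteins of the stress response, also had a row. STC2, a glycoprotein hormone induced by ATF4, was at 8.23 FPKM in knockdown cells and 23.6 FPKM in scramble cells (2.86-fold lower, interval 2.66 to 3.08). FGF21, a metabolic hormone, was at 0.03 FPKM in knockdown cells on 1 read and 0.71 FPKM in scramble cells on 21 reads (ratio 0.0493, interval 0.00119 to 0.306).

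DDIT3 and CHAC1 stand for the ATF4 and CHOP axis. DDIT3 encodes CHOP, a C/EBP-family transcription factor that promotes death under lasting stress. DDIT3 (gene ID 1649) was at 2.98 FPKM in knockdown cells (61 reads) and 8.28 FPKM in scramble cells (181 reads). It was 2.87-fold lower (interval 2.14 to 3.90), with a log2 ratio of -1.44. DDIT3 is uncertain, because 39.6% of its exon bases overlap other genes, 31.6% on the opposite strand (MARS and MBD6), and 7.23% of its 31-base words occur in another gene. CHAC1, an enzyme that breaks down glutathione and is induced by ATF4, was less uncertain, with no overlap and no shared words. CHAC1 (gene ID 79094) was at 5.14 FPKM in knockdown cells (210 reads) and 22.6 FPKM in scramble cells (952 reads). It was 4.38-fold lower (interval 3.77 to 5.11), with a log2 ratio of -2.11. ATF3, a transcription factor induced by ATF4, was at 6.0 FPKM in knockdown cells and 12.8 FPKM in scramble cells (2.12-fold lower, interval 1.84 to 2.45). Of 7 transcription factor genes of the response, DDIT3 and ATF3 had a row (28.6% of the list), and the other 5, ATF4 among them, had none. Of 9 ATF4 and CHOP targets 4 had a row and were lower (44.4%), and 5 had none. Beside these stand 4.98% of all genes tested, and DDIT3, CHAC1 and GDF15 were chosen with their lower levels known.

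Genes of amino acid supply, the metabolic arm of the response, lay on both sides. Of 11 genes of amino acid synthesis and one-carbon supply, 3 had a row and were lower (27.3% of the list, beside 4.98% of all genes tested). The list was chosen with earlier results of these data known, and none of the 3 is a serine synthesis gene. MTHFD2, a mitochondrial folate enzyme, was at 53.3 FPKM in knockdown cells and 119 FPKM in scramble cells (2.23-fold lower, interval 2.13 to 2.34). MTHFD2 is uncertain, with 33.2% of its exon bases overlapping genes on the opposite strand and 10.7% of its words in other genes. ALDH1L2, a further mitochondrial folate enzyme, was at 1.79 FPKM in knockdown cells and 5.92 FPKM in scramble cells (3.30-fold lower, interval 2.90 to 3.76). CTH, which makes cysteine from cystathionine, was at 6.17 FPKM in knockdown cells and 15.8 FPKM in scramble cells (2.56-fold lower, interval 2.24 to 2.95). The amino acid transporter gene SLC7A5 was higher, at 177 FPKM in knockdown cells and 87.6 FPKM in scramble cells (ratio 2.02, interval 1.97 to 2.08), with 6.39% of its words in other genes. It was the 1 of 8 transport genes with a row (12.5% of the list, beside 5.86% of all genes tested that were higher). WARS, the cytoplasmic tryptophanyl-tRNA synthetase, was higher too, at 109 FPKM in knockdown cells and 48.05 FPKM in scramble cells (ratio 2.27, interval 2.17 to 2.37), with 10.6% of its exon bases overlapping other genes. It was the 1 of 9 tRNA charging genes with a row (11.1% of the list, beside the same 5.86%).

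Counted over the pathway lists, 11 of 40 p53 targets had a row, 9 of them lower and 2 higher, which is 22.5% and 5.0% of the list beside the 4.98% and 5.86% above. Without the 7 described genes, 6 of 35 had a row, 5 lower (14.3%) and 1 higher (2.86%). The lists too were chosen with earlier results of these data known, so their shares are a description and carry no test. Of the 5 targets of feedback and survival, MDM2 among them, 0 had a row. The median log2 ratio of the p53 targets with a row was -1.26, beside 1.01 over all listed genes and -1.37 over the lower ones. Without the described genes, chosen with their levels known, it was -1.19. Every listed gene has a deposited log2 ratio of at least 1 in size, so such a median mainly tells which direction holds more genes. Of 51 genes of the integrated stress response, 11 had a row, 9 lower (17.6%) and 2 higher (3.92%); without the described genes, 8 of 48 had a row, 6 lower (12.5%) and 2 higher (4.17%). The median log2 ratio of the integrated stress response genes was -1.39 over the 10 genes at 1 FPKM or more in a library. Over the 8 with a row that are not described genes, at any level, it was -1.25. The lists share GDF15 and SESN2. Of 7 eIF2 kinase and phosphatase genes 0 had a row, and of 20 genes of the ATF6 and XBP1 arm of the unfolded protein response 1 had, HERPUD1, an ER-associated degradation factor at 7.42 FPKM in knockdown cells and 18.3 FPKM in scramble cells. Of 13 genes for p53 and its regulators, 2 had a row and both were higher. The kinase HIPK2, which phosphorylates p53, was at 11.9 FPKM in knockdown cells and 4.69 FPKM in scramble cells, and TP53BP1, a DNA break repair factor with 28.7% of its exon bases overlapping another gene, was at 28.1 and 13.3 FPKM in that order.

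**Figure D4:**
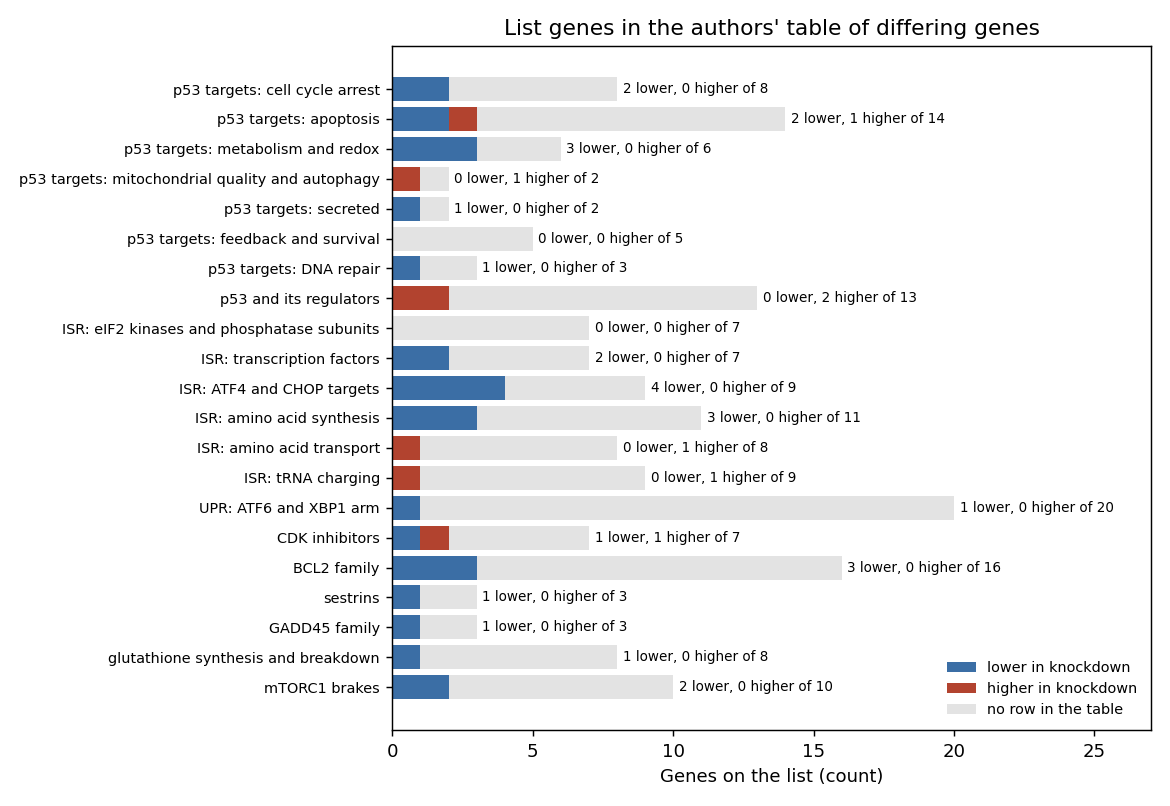
Number of genes on each list that the authors' deposited table holds as lower (blue) or higher (red) in the knockdown library, or that have no row in it (grey). The p53 target lists hold 9 lower and 2 higher genes and the integrated stress response lists 9 and 2, with GDF15 counted in both.

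The 7 genes differed among themselves in size as well as in direction. In order of the read ratio, PMAIP1 (0.212) was lowest, followed by CHAC1 (0.228), CDKN1A (0.248), SESN1 (0.302), GDF15 (0.316), DDIT3 (0.349) and SPATA18 (2.17). Neighbours in that order had overlapping counting intervals, except DDIT3 and SPATA18. The PMAIP1 interval (0.202 to 0.222) lay below that of CDKN1A (0.224 to 0.274) and below those of SESN1, GDF15 and DDIT3. Each interval leaves out variation between cultures, which 1 library per group cannot show.

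**Figure D5:**
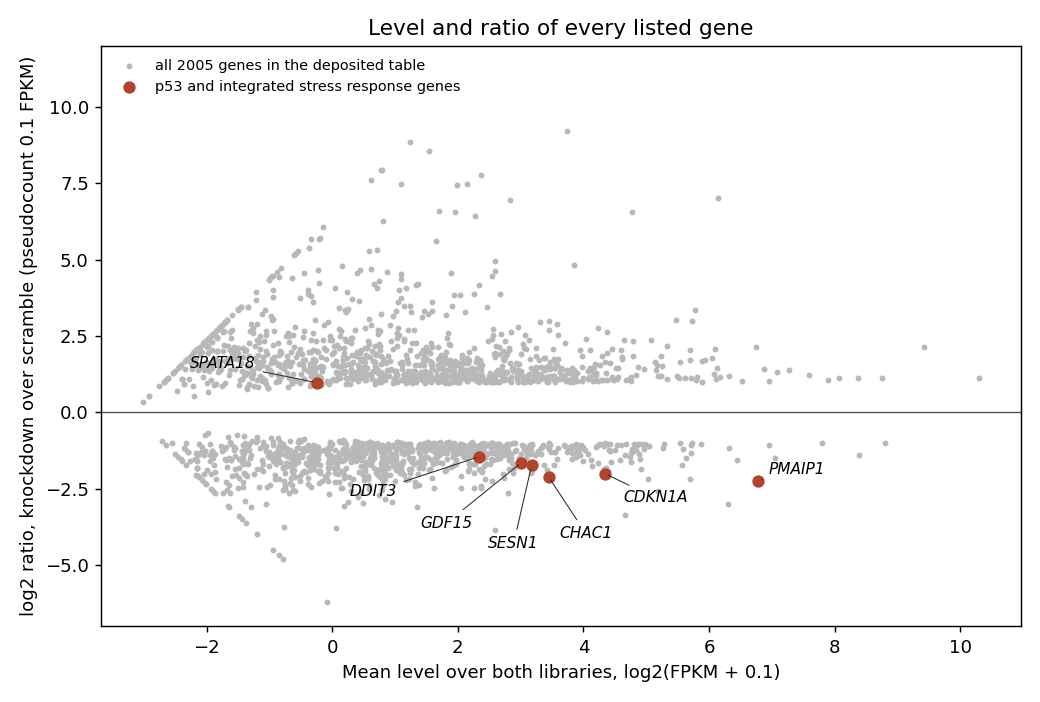
Log2 ratio of knockdown over scramble (pseudocount 0.1 FPKM) against the mean log2 level of both libraries for each of the 2005 listed genes (grey), with the 7 described genes in red. The 6 lower genes lie between -1.44 and -2.24, and PMAIP1 stands at the high end of the levels.

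Genes with the closest levels in both libraries were found by Euclidean distance on log2 (FPKM + 0.1) over the 2 libraries, which says nothing of shared function. CDKN1A was closest to RAI14 (10.2 FPKM in knockdown cells and 42.2 FPKM in scramble cells) and TSPAN4. PMAIP1 had no close neighbour, with PODXL and HK1 at distances of 0.651 and 0.684. For CHAC1, CDKN1A, SESN1, DDIT3 and SPATA18 the nearest gene lay within 0.163 and the second nearest within 0.287. CHAC1 was closest to HSPA2 and DPPA2, SESN1 to JPH4 and CHST8, DDIT3 to TERT and ANG, and SPATA18 to SCUBE3 and WNT5A.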

How the data were processed

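Total RNA of 1 library per group was read on a BGISEQ-500 sequencer according to the labels' protocols, and per the submitters' processing notes hg19 and Bowtie 0.12.2 were used. The authors' counter, test, filters and strand setting were not given in the sources used here. The authors' deposited table gives FPKM levels (the header says only expression; RPKM and FPKM cannot be told apart), the log2 ratio of those levels that the authors computed, a p-value and a false discovery rate per gene. It holds only genes with a false discovery rate of at most 0.000990 and a log2 ratio of at least 1 in size. The authors' p-values and rates give whole ranks for 18489 tested genes.

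Reads were inferred as whole pairs that give both FPKM values and the p-value (Audic and Claverie, doubled smaller tail, counting values beyond the observed one), within 2e-05 on the natural log of p. A first search allowed 0.6% on each FPKM, and a wider one 5%. This gave a pair for 1734 of the 1926 genes whose p-value is not printed as 0, and the other genes took reads from FPKM. SESN1 and DDIT3 came from the wider search and lay -1.73% and 3.86% off their scramble FPKM. On a simulated table of 1988 genes, a pair was found for 99.9% of those with a nonzero p-value, against 90.0% in the deposited values. Of the intervals for 191 changed genes, 95.3% held the true ratio. The simulation was built with the counting model, p-value formula and depths that the inference assumes. It therefore checks the computation and not whether that model holds here. The FPKM errors added to it were smaller than the 3.86% of DDIT3. Scripts ran in Python 3.11.15 with scipy 1.17.1.

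Genes passed a level filter of 1 FPKM in at least 1 library. Shared sequence and overlaps came from GENCODE 29 (GRCh38) by gene name, as the percent of 31-base words of the longest transcript. The members and lists were chosen with earlier results of these data known. Named genes are the members, TFCP2L1, list genes with a row and the 2 genes nearest each member in level; those nearest GDF15 are not reported here. With 1 library per group, no p-value was computed. Alternatives were a pseudocount of 1 FPKM, the deposited ratio, no level filter, read ratios and another scaling.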

Additional observations from a re-analysis of the deposited data

How the results depend on the processing

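Of 71 recomputed values over the 15 results, 64 moved little (a gene's log2 ratio by less than 0.5 of the width of its counting interval, a count by at most 1.5 times, a median by under 0.1). Of the 71 values 0 changed sign, but this is no check. Counts have no sign, and a pseudocount or the deposited ratio keeps the direction of each difference. Read ratios were inferred from the same levels, and the other scaling shifts each log2 ratio by only 0.03. The count of described genes at least 2-fold higher was 1 in place of 0, and that of p53 targets 2 in place of 1, with the deposited ratio, with read ratios and with scaling by genes without a row, the last chosen after seeing the data; in each case SPATA18 crossed the limit. The median log2 ratio of the integrated stress response genes was -1.23 in place of -1.39 with a pseudocount of 1 FPKM, by the construction of that scale. Leaving out DDIT3, also chosen after seeing the data, took the integrated stress response genes at least 2-fold lower from 8 to 7. Dropping 1 gene from such a count cannot pass the limit of 1.5 times, so this is no check. The deposited ratio likewise keeps every lower gene at least 2-fold lower, by the authors' limits. The log2 ratio ranged from -2.24 to -2.21 for PMAIP1, from -1.52 to -1.22 for DDIT3, and from 0.47 to 1.12 for SPATA18, whose value of 0.47, with a pseudocount of 1 FPKM, lies below its counting interval. That value still counts among the 64 that moved little. No paired analysis was possible because each group has 1 library. Of the 7 described genes, SPATA18 and DDIT3 had the fewest reads, 155 and 242 over both libraries.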

Other observations

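Some genes on lists next to these pathways had a row too, and nothing is read from their counts. CCND1, which encodes the G1 cyclin D1, was at 50.7 FPKM in knockdown cells and 19.01 FPKM in scramble cells (ratio 2.67, interval 2.53 to 2.82). A gene on the opposite strand overlaps 10.3% of its exon bases. CCND1 was the 1 gene with a row among 12 cyclin, CDK and PCNA genes whose products p21 binds. That is 8.33% of the list, beside 5.86% of all genes tested that were higher. Of 7 CDK inhibitor genes, CDKN1A (lower, 14.3% of the list, and chosen with its level known) and CDKN2B (higher, 14.3%) had a row. CDKN2B was at 0.53 FPKM in knockdown cells on 46 reads, with 0 reads in scramble cells, and its ratio is at least 12.4 by the lower end of the exact counting interval. GADD45G, a stress-induced growth arrest gene, was at 1.68 FPKM in knockdown cells and 6.61 FPKM in scramble cells (3.92-fold lower, interval 2.74 to 5.71). It was the 1 of 3 GADD45 genes with a row, which is 33.3% of the list beside 4.98% of all genes tested. DEPTOR, a direct inhibitor of mTOR, was at 0.41 FPKM in knockdown cells and 3.35 FPKM in scramble cells (8.14-fold lower, interval 5.32 to 13). A gene on the opposite strand overlaps 9.61% of the exon bases of DEPTOR. Of 10 genes that restrain mTORC1, SESN1 and DEPTOR had a row and both were lower, which is 20% of the list beside 4.98% of all genes tested, and SESN1 was chosen with its lower level known.

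The function terms in the authors' deposited table were counted after the levels were seen. Of 8 listed genes with the term cellular response to stress 7 were lower, SESN1 and DDIT3 among them, both chosen with their lower levels known, and SPATA18 was higher. Of 49 with the broader term response to stress (CHAC1 among them) 27 were lower, which is 55.1% beside 45.9% of all listed genes, and of 6 with the term response to ionizing radiation (PMAIP1 and CDKN1A among them) 3 were lower. Of 3 with the term response to light stimulus (PMAIP1, CDKN1A and DDB2) 3 were lower, but PMAIP1 and CDKN1A were chosen with their lower levels known. Of 58 with the term apoptotic process 30 were lower, which is 51.7%, and of 7 with the term cell cycle arrest 3 were lower. Of 2 with the term for the DNA damage response through p53, CDKN1A was lower and HIPK2 higher. Of 3 with the term cellular response to starvation 1 was lower (PMAIP1). Of 31 with the term negative regulation of cell proliferation 16 were lower, which is 51.6%. The share to set beside each count is the same 45.9% of all listed genes.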
